A study of Mus musculus with 29 samples.

Results

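Interferon regulatory factors (IRFs) and STATs, the transcription factors that carry interferon and cytokine signals into the nucleus, were followed in 3 mouse experiments in which miR-99b-5p was blocked with anti-miR-99b, a locked nucleic acid (LNA) inhibitor. The 9 genes, 6 IRFs (Irf1, Irf3, Irf5, Irf7, Irf8 and Irf9) and 3 STATs (Stat2, Stat3 and Stat6), were taken by symbol and matched to their Ensembl identifiers among the 48709 genes of the count tables, and all 9 passed the filter on low counts in every experiment. In the prefrontal cortex (PFC) experiment, male C57BL/6J mice aged 3 months received anti-miR-99b or the negative control LNA (sc-control) in lipid nanoparticles on both sides of the PFC, and 1 side was sequenced 5 days later, with 3 libraries per group. In the microglia experiment, primary microglia of CD1 pups at postnatal day 1, grown in medium with 20% L929-conditioned medium, were treated for 2 days, with 4 libraries per group. In the co-culture experiment, CD1 microglia of the same age were treated for 48 h and then placed on cortical neurons of CD1 embryos at day 17.5, and RNA of the whole culture was taken 48 h later for 7 anti-miR-99b and 8 sc-control libraries. The labels name no transgene or deletion in any group, and every group, the control included, received an LNA. The PFC differed from the cultures in strain, age and experiment as well as in tissue, so these cannot be told apart between experiments.

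The libraries held 21324156 to 37901110 reads on genes. Levels are given as CPM, the reads of a gene relative to the size of its library, after TMM scaling. This rescales the library sizes within an experiment and does not make their cell composition equal. The difference between treatments is the log2 fold change (log2FC) of edgeR's quasi-likelihood test, positive when anti-miR-99b was higher, with its standard error (SE), and p-values were adjusted with the Benjamini-Hochberg method over all genes tested in that experiment. To be called, a gene had to pass 2 limits, on the adjusted p-value and on the size of the log2FC. These were 0.1 and 0.2 in the PFC, 0.1 and 0.1 in microglia, and 0.05 and 0.1 in the co-culture. Summed over 10 microglial markers, the level was 9130 to 9660 CPM in the microglia libraries, 445 to 596 CPM in the PFC and 114 to 143 CPM in the co-culture, while 10 neuronal markers summed to 113 to 127 CPM in microglia, 12320 to 13210 CPM in the PFC and 6718 to 7041 CPM in the co-culture. The co-culture also held astrocyte RNA, since 8 astrocyte markers summed to 2370 to 2583 CPM there, 3843 to 4678 CPM in the PFC and 165 to 194 CPM in microglia. The labelled tissue and cultures carried their defining markers, but Siglech did not pass the filter in either culture, and P2ry12, Tmem119 and Siglech averaged under 1 CPM in the co-culture. In bulk RNA, fewer cells of a type and less RNA per cell cannot be told apart. The PFC libraries came from individual mice. The labels do not tie the libraries of the other experiments to separate cultures beyond their number, so p-values there measure the spread between these libraries, which may be technical.

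IRF3 and IRF7 are held inactive in the cytoplasm until sensors of nucleic acids lead kinases such as TBK1 to phosphorylate them, after which they switch on interferon genes. Secreted type I interferon then acts on its receptor, whose JAK kinases activate STAT2, and STAT2 joins IRF9 in a complex that binds the interferon-stimulated response element of target genes, Irf7 itself among them. IRF1 is induced by interferon gamma, IRF5 acts downstream of Toll-like receptors, and IRF8 is a lineage factor of macrophages and microglia. STAT3 carries signals of the IL-6 and IL-10 families, and STAT6 those of IL-4 and IL-13.

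The sequences below show what the inhibitor binds and what stands before the start of 4 of the genes. The mature miRNA, encoded at chr17:17830194-17830215 on the plus strand (GRCm38.p6, RefSeq), is shown first with its seed, bases 2 to 8, in capitals. It shares this seed with 2 other mature mouse miRNAs, miR-99a-5p and miR-100-5p.
miR-99b-5p: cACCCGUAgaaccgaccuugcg
None of the 9 genes held a match to the seed (TACGGGT) or to bases 2 to 7 in the annotated sequence after the stop codon. Such matches were rare, in 1.11% and 5.49% of 20865 genes, so their absence from 9 genes does not set the members apart.

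The next windows are the 250 bases before the RefSeq start, or for Irf7 the first 193 of them, since GENCODE places the last 57 inside the gene, of the 2 members that passed the call rule in microglia, Stat2 and Irf7, and of the 2 members with a gamma-activated sequence, Irf1 and Irf8. Capitals mark a match, on either strand, to the interferon-stimulated response element (ISRE, searched as GAAA, any 2 bases, GAAA) or to the gamma-activated sequence (GAS, TTCNNNGAA, to which STAT dimers bind). No match of one kind overlapped a match of the other.
Stat2, chr10:128270248-128270497, plus strand: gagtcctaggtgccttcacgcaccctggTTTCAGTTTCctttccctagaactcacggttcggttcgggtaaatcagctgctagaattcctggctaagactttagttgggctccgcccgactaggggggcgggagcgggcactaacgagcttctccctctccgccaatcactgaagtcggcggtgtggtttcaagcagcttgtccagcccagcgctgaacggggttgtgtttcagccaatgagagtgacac
Irf7, chr7:141266482-141266674, minus strand: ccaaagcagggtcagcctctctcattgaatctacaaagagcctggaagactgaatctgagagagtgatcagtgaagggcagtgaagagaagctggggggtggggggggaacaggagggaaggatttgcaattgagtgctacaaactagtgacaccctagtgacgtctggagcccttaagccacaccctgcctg
Irf1, chr11:53769764-53770013, plus strand: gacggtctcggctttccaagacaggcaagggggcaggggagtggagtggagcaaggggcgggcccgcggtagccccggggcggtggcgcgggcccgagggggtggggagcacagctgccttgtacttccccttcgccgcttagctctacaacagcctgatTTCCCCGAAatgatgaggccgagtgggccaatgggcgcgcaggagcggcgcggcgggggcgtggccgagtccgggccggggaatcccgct
Irf8, chr8:120736108-120736357, plus strand: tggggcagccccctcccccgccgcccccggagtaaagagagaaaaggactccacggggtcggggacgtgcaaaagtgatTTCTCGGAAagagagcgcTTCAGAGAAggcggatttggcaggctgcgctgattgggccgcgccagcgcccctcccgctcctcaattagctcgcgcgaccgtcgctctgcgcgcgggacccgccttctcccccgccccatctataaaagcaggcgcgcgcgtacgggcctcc
In windows of 300 bases, which run on to 50 bases after the start, RefSeq listed 12 starts for the 9 members. An ISRE stood only in that of Stat2, beginning at position -222, against 3.44% of 32851 promoter windows of the genome. A GAS stood in the first window of Irf1, at -90, and of Irf8, at -171 and -153, against 8.3% of all windows. The Irf7 window held neither set of letters, nor did those of Irf3, Irf5, Irf9, Stat3 and Stat6. The Irf9 windows lay wholly inside the gene as GENCODE places it, so no bases before its GENCODE start were searched.

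On GRCm38, Irf1 (ENSMUSG00000018899) lies at chr11:53770014-53778374, Irf8 (ENSMUSG00000041515) at chr8:120736358-120756694 and Irf5 (ENSMUSG00000029771) at chr6:29526625-29541871, all on the plus strand. Irf3 (ENSMUSG00000003184) lies at chr7:44997648-45002848 on the plus strand and Irf7 (ENSMUSG00000025498) at chr7:141262706-141266481 on the minus strand, and Irf9 (ENSMUSG00000002325) lies at chr14:55603571-55610030 on the plus strand. Stat2 (ENSMUSG00000040033) and Stat6 (ENSMUSG00000002147) lie on the plus strand of chromosome 10, at chr10:128270559-128292849 and chr10:127642986-127660957, and Stat3 (ENSMUSG00000004040) lies on the minus strand at chr11:100885098-100939540. The share of a member's exon bases that also belongs to the exons of a neighbour was 14.1% for Irf5 (with Tnpo3, on the opposite strand) and 0% to 3.4% for the others. No strand setting is given in the sources used here, so reads in these overlaps are uncertain. Tnpo3 had a log2FC of -0.05, -0.04 and -0.00 in the PFC, microglia and co-culture, and Nab2, whose end overlaps that of Stat6 over 0.909% of the exon bases, had a log2FC of 0.00 ± 0.05 (SE) in the co-culture.

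The PFC experiment asked what the inhibitor does in brain tissue. No member passed the call rule there by edgeR, 5 of 9 had an unadjusted p-value under 0.05, and DESeq2 called 1, Stat2. Over all 17364 genes tested, 0.0864% were called higher and 0% lower, and 7.64% had an unadjusted p-value under 0.05. All 9 log2FC values were above 0, with a median of 0.35 against 0.00 over all genes.

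Irf7, the amplifier of the interferon response, had the largest log2FC. It stood at 26.4, 23.8 and 28.2 CPM in anti-miR-99b replicates 1, 2 and 3 and at 10.7, 7.93 and 18.7 CPM in sc-control replicates 2, 3 and 4. The groups did not overlap, and the control library with the highest level, replicate 4, lay apart from the other two. The log2FC was 1.07 ± 0.24 (SE, adjusted p-value = 0.286, edgeR), a 2.09-fold level, and the exact permutation test of the CPM gave p = 0.1, the smallest value that 3 against 3 libraries allow.

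Stat2, the interferon STAT that partners with IRF9, stood at 50.4, 49.9 and 54.5 CPM in the anti-miR-99b libraries and at 38.8, 35.7 and 42.6 CPM in the sc-control libraries. Again the groups did not overlap and sc-control replicate 4 was the highest control. The log2FC was 0.40 ± 0.08 (SE, adjusted p-value = 0.234, edgeR). Irf9, the DNA-binding partner of STAT2, stood at 25.5, 29.8 and 33.9 CPM against 20.6, 18.2 and 28.8 CPM, so that sc-control replicate 4 lay above 1 of the 3 anti-miR-99b libraries. Its log2FC was 0.40 ± 0.16 (SE, adjusted p-value = 0.648, edgeR).

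Irf8, the microglial lineage factor, stood at 15.2, 15.8 and 12.2 CPM in the anti-miR-99b libraries and at 8.88, 8.91 and 14.0 CPM in the sc-control libraries. Irf5, which acts downstream of Toll-like receptors, stood at 7.56, 8.47 and 6.61 CPM against 5.50, 5.46 and 8.07 CPM. In both genes sc-control replicate 4 was above anti-miR-99b replicate 3, and the groups overlapped. The log2FC was 0.43 ± 0.18 for Irf8 and 0.25 ± 0.17 for Irf5 (SE, adjusted p-values of 0.648 and 0.715, edgeR).

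Irf1, the factor induced by interferon gamma, stood at 13.8, 14.4 and 14.5 CPM after anti-miR-99b and at 11.5, 9.23 and 12.6 CPM after sc-control, without overlap, and its log2FC was 0.35 ± 0.12 (SE, adjusted p-value = 0.587, edgeR). Irf3, Stat3 and Stat6 had the smallest values, with log2FC of 0.12 ± 0.08, 0.12 ± 0.07 and 0.11 ± 0.08 (SE) and adjusted p-values of 0.682 to 0.719 (edgeR). Of these, Stat6 did not overlap between the groups, at 20.5, 20.9 and 19.5 CPM against 19.0, 18.0 and 19.4 CPM. In all, 4 of the 9 members had every anti-miR-99b library above every sc-control library, against 7.52% of all genes tested.

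**Figure D1:**
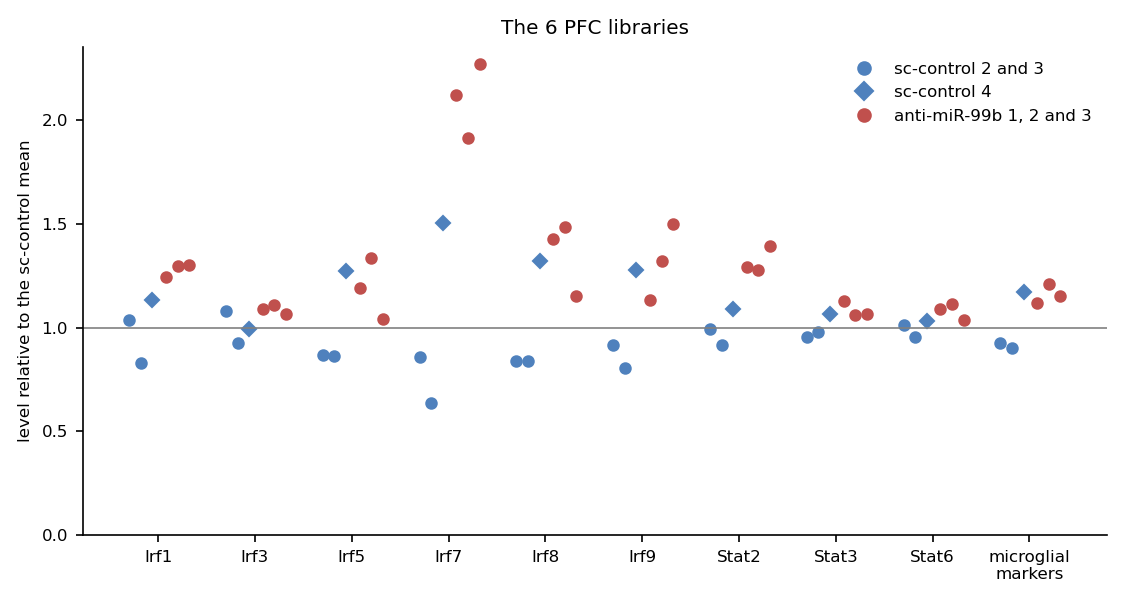
Level of each member, and of the summed 10 microglial markers, in the 6 PFC libraries, divided by the mean of the 3 sc-control libraries (points are libraries, diamonds sc-control replicate 4, the horizontal line a value of 1). In Irf5, Irf8, Irf9 and the microglial markers the diamond lies among the anti-miR-99b libraries, and in Irf7 and Stat2 it lies between the other controls and the anti-miR-99b libraries.

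The libraries with much Irf8 and Irf5 were those with high microglial markers. The 10 microglial markers summed to 549, 596 and 567 CPM in the anti-miR-99b libraries and to 455, 445 and 577 CPM in the sc-control libraries, so sc-control replicate 4 was the second highest of the 6. Of these markers 0 of 10 passed the call rule, 3 had an unadjusted p-value under 0.05 and 9 had a log2FC above 0. Per 1000 CPM of these markers, Irf7 averaged 45.9 ± 5.27 in the anti-miR-99b and 24.6 ± 7.34 in the sc-control libraries (SD, n = 3 each), still without overlap. On the same scale Irf8 was 25.2 ± 3.21 against 21.3 ± 2.62, Irf5 13.2 ± 1.35 against 12.8 ± 1.05, and Stat2 90.5 ± 6.38 against 79.8 ± 5.74 (SD, n = 3 each), and in each the groups overlapped. They overlapped in the other 5 members too, with log2 ratios of 0.14 for Irf1, 0.20 for Irf9, -0.11 for Irf3, -0.11 for Stat3 and -0.12 for Stat6. The summed markers themselves had a log2 ratio of 0.21, which lowers each ratio on this scale. The summed markers of blood leukocytes and border macrophages were low, at 6.53 to 8.76 CPM against 4.86 to 7.81 CPM, with 8 of 10 markers under 1 CPM on average. Whether cell numbers had a part in the member values was not tested.

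The calls in the PFC turned on 1 library. Without sc-control replicate 4, 4 members passed the rule, against 1.11% of all genes called higher in the same fit: Irf7 with a log2FC of 1.48, Irf8 with 0.69, Irf9 with 0.61 and Stat2 with 0.47 (adjusted p-values of 0.00578, 0.056, 0.0711 and 0.0542, edgeR). With the sequencing lane as a covariate, Irf7 (log2FC of 1.12, adjusted p-value = 0.0277) and Stat2 (0.40, adjusted p-value = 0.0376) passed the rule in edgeR. Within each of the 2 lanes the mean of anti-miR-99b was above that of sc-control for Irf7 (log2 ratios of 0.60 and 1.43) and Stat2 (0.36 and 0.43), but for Irf8 and Irf5 in only 1 lane.

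In the cultures of primary microglia Irf7 and Stat2 were upregulated and no member was downregulated. These 2 of 9 members stood against 0.435% of the 14953 genes tested that were called higher and 0.0535% called lower. All 9 log2FC values were above 0, with a median of 0.07 against 0.00 over all genes, and 7 of the 9 were at most 0.16.

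Irf7 stood at 61.2, 41.2, 52.3 and 58.1 CPM in anti-miR-99b replicates 1, 3, 4 and 5 and at 42.5, 36.01, 32.7 and 26.2 CPM in sc-control replicates 2, 3, 4 and 6. Only anti-miR-99b replicate 3 fell below the highest control. The log2FC was 0.65 ± 0.11 (SE, adjusted p-value = 0.0106, edgeR), a 1.57-fold level, with exact permutation p = 0.0571, where 4 against 4 libraries allow no p below 0.0286. Among all genes tested, 3 had a smaller p-value than Irf7.

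Stat2 stood at 114, 82.4, 95.1 and 99.3 CPM in the same order of anti-miR-99b libraries and at 87.6, 81.8, 73.9 and 69.4 CPM in the sc-control libraries. The order of libraries was that of Irf7, with anti-miR-99b replicate 1 highest and replicate 3 lowest in 1 group, and sc-control replicate 2 highest and replicate 6 lowest in the other. The log2FC was 0.33 ± 0.07 (SE, adjusted p-value = 0.0405, edgeR), a 1.25-fold level. DESeq2 called neither gene (adjusted p-values of 0.192 for Irf7 and 0.746 for Stat2). By edgeR, Irf7 lost its call without sc-control replicate 4 (adjusted p-value = 0.116) or anti-miR-99b replicate 5 (0.121), and Stat2 lost it without sc-control replicate 4 or 6 or anti-miR-99b replicate 1, 4 or 5 (adjusted p-values of 0.11 to 0.315).

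Irf9 came next, at 79.2, 71.8, 77.6 and 81.04 CPM against 77.1, 70.7, 67.8 and 63.0 CPM, with a log2FC of 0.16 ± 0.05 (SE, adjusted p-value = 0.323, edgeR). Irf1 had a log2FC of 0.08 ± 0.04 and Stat3 one of 0.07 ± 0.03 (SE, adjusted p-values of 0.787 and 0.713, edgeR). Irf8 and Irf5, the most abundant members per length in these cells, had log2FC of 0.04 ± 0.03 and 0.06 ± 0.03 (SE), and Irf3 and Stat6 had 0.05 ± 0.04 and 0.04 ± 0.03 (SE), with adjusted p-values of 0.857 to 0.901 for these 4 genes (edgeR). In none of the 9 members did the groups stay apart, against 1.65% of all genes in which every anti-miR-99b library was above every control. The microglial markers summed to 9367 to 9660 CPM after anti-miR-99b and to 9130 to 9490 CPM after sc-control, and 0 of the 9 markers tested passed the call rule or had an unadjusted p-value under 0.05.

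**Figure D2:**
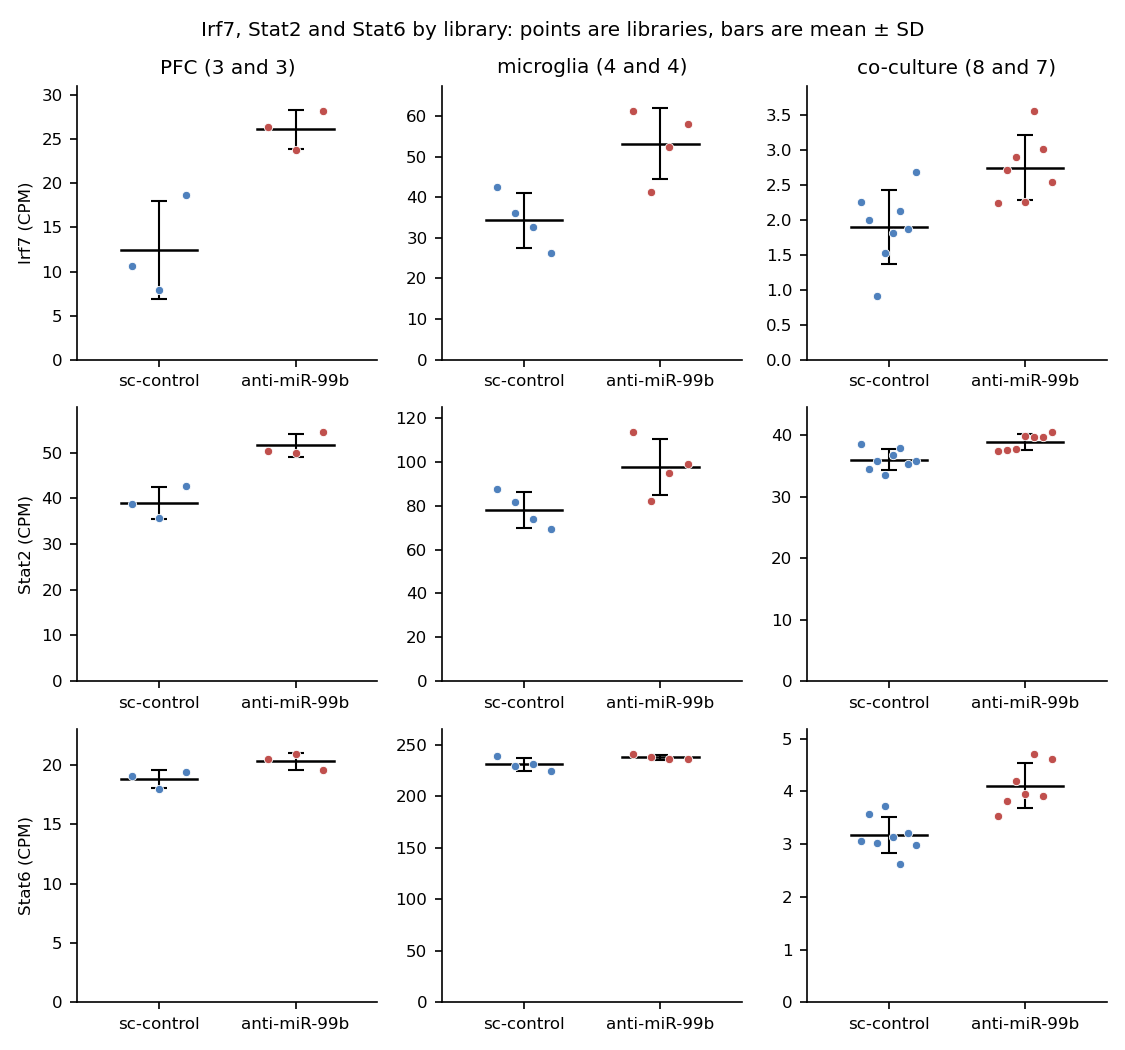
CPM of Irf7, Stat2 and Stat6 in every library of the 3 experiments (points are libraries in the order of their number, horizontal lines are means, whiskers are SD, and each axis starts at 0; in brackets the number of sc-control and anti-miR-99b libraries). Irf7 is separated between treatments in the PFC, overlaps by 1 anti-miR-99b library in microglia and by 3 in the co-culture, where the largest relative step of a STAT is that of Stat6.

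In the co-culture, where the microglial markers were lowest, Stat6, the STAT of IL-4 and IL-13 signalling, was the member that was upregulated. This 1 of 9 members stood against 0.846% of 16193 genes called higher and 0.556% called lower. The log2FC was above 0 in 8 of 9 members, with a median of 0.09 against 0.00 over all genes, and 3 members had an unadjusted p-value under 0.05, against 13.2% of all genes.

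Stat6 ranged from 3.54 to 4.72 CPM (median 3.96) in the 7 anti-miR-99b libraries and from 2.62 to 3.72 CPM (median 3.10) in the 8 sc-control libraries. All 7 anti-miR-99b libraries were above the control median and 6 above every control. These levels rested on 69 to 142 reads per library. The log2FC was 0.38 ± 0.08 (SE, adjusted p-value = 0.0107, edgeR), a 30.3% higher level, with exact permutation p = 0.000777.

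Irf7 ranged from 2.24 to 3.55 CPM (median 2.72) after anti-miR-99b and from 0.913 to 2.69 CPM (median 1.93) after sc-control, on 28 to 107 reads per library. All 7 anti-miR-99b libraries were above the control median and 4 above every control. The log2FC of 0.54 ± 0.14 (SE) was the largest of the 9, but its adjusted p-value of 0.0577 (edgeR) stood just outside the rule, and DESeq2 gave 0.0229. Stat2 ranged from 37.3 to 40.5 CPM (median 39.7) against 33.4 to 38.5 CPM (median 35.8), with a log2FC of 0.11 ± 0.03 (SE, adjusted p-value = 0.0878, edgeR).

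Irf8 ranged from 3.74 to 4.82 CPM (median 4.34) against 3.76 to 4.22 CPM (median 3.87), with 5 of 7 anti-miR-99b libraries above every control and a log2FC of 0.14 ± 0.06 (SE, adjusted p-value = 0.386, edgeR). The other 5 members had log2FC between -0.04 ± 0.07 for Irf1 and 0.09 ± 0.10 for Irf5 (SE), with adjusted p-values of 0.536 to 0.849 (edgeR). In none of the 9 did the groups stay apart, against 0.303% of all genes in which every anti-miR-99b library was above every control.

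The sum of the microglial markers moved with the treatment in these cultures. The 7 anti-miR-99b libraries summed to 137 ± 5.06 CPM (mean ± SD) and the 8 sc-control libraries to 122 ± 7.16 CPM (two-sided exact permutation p = 0.00109), and 3 of the 9 markers tested passed the call rule, Csf1r (log2FC of 0.34), C1qa (0.34) and Cx3cr1 (0.39). Not all markers rose: 7 of the 9 had a log2FC above 0, and the lowest log2FC was -0.24. Per 1000 CPM of the summed markers, Stat6 was 30.1 ± 3.37 (SD, n = 7) against 26.0 ± 2.54 (SD, n = 8), a log2 ratio of 0.21 in place of 0.38 (exact permutation p = 0.0221), and Irf7 was 20.1 ± 3.24 against 15.6 ± 4.55 (p = 0.049 by the same exact test). The other 7 members were below 0 on that scale, with log2 ratios of -0.21 for Irf1 (exact permutation p = 0.0207), -0.12 for Stat3 (exact permutation p = 0.00653) and -0.11 to -0.03 for Irf3, Irf5, Irf8, Irf9 and Stat2 (exact permutation p of 0.135 or more). The summed markers themselves had a log2 ratio of 0.16, so a member that rose less than they did falls below 0. Before this division the log2FC was -0.04 ± 0.07 for Irf1 and 0.05 ± 0.03 for Stat3 (SE). In sc-control libraries these genes were 9.26-fold and 2.04-fold higher in microglia than in the co-culture, the summed markers 88.2-fold. These ratios and p-values therefore hold the rise of the markers as well as any change of the member. With the log2 sum of these markers as a covariate, no member passed the rule, and 3 genes in all were called in place of 227. Stat6 then had a log2FC of 0.31 ± 0.12 (SE, adjusted p-value = 1.00, edgeR), where the SE without the covariate was 0.08. The covariate itself differed between the treatments, so this fit cannot separate it from the treatment. The part of cell numbers in these values was not tested further.

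**Figure D3:**
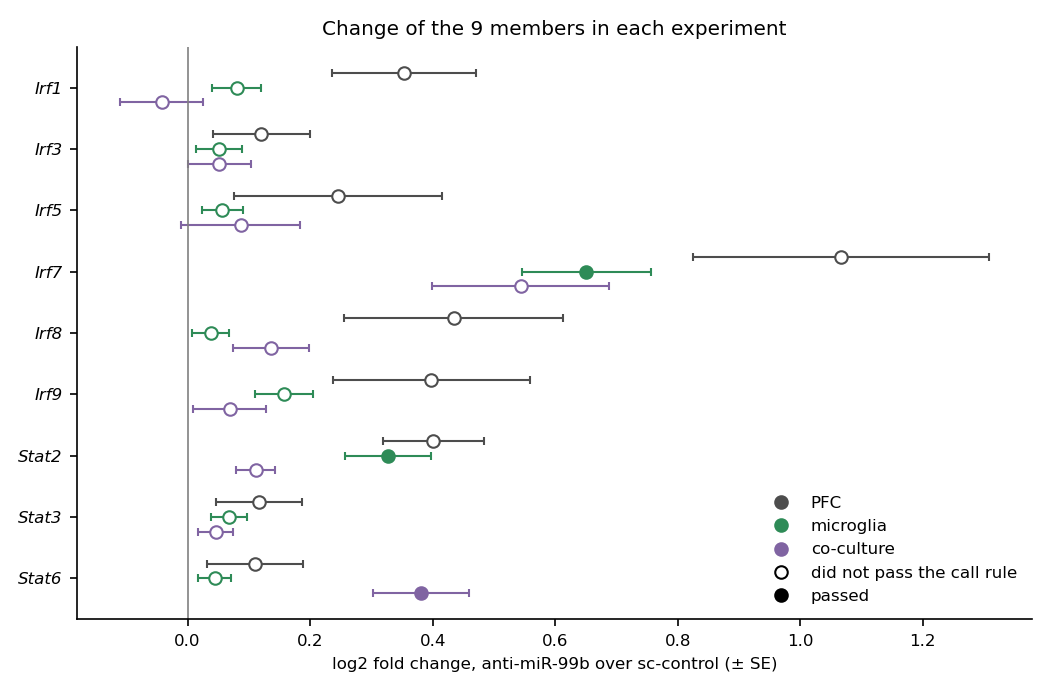
log2FC ± SE of anti-miR-99b over sc-control for the 9 members in the PFC (grey), microglia (green) and the co-culture (purple), with filled points for members that passed the call rule of that experiment. Filled points are Irf7 and Stat2 in microglia and Stat6 in the co-culture, and every point but that of Irf1 in the co-culture lies above 0.

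Whether the effect of the inhibitor differed between experiments was tested in 1 edgeR fit of all 29 libraries. No difference of a member passed an adjusted p-value of 0.05 in any of the 3 pairs of experiments. At an unadjusted p-value under 0.05 there were 2 of 9 members between the PFC and microglia, 5 between the PFC and the co-culture and 2 between microglia and the co-culture, against 11.9%, 15% and 5.49% of all genes. Over all 18963 genes, edgeR called 0.469% between the PFC and microglia, 0.791% between the PFC and the co-culture and 0.0844% between microglia and the co-culture. DESeq2 called 2 member differences, and 279, 506 and 39 genes in all in the same order of pairs. The call of Stat6 in the co-culture and not in microglia was among those with a small unadjusted p-value, with a difference of -0.32 ± 0.08 (microglia minus co-culture, SE, adjusted p-value = 0.13 by edgeR and 0.0342 by DESeq2). The log2FC of Irf1 was larger in the PFC than in the co-culture by 0.40 ± 0.11 (SE, adjusted p-value = 0.0754 by edgeR and 0.0262 by DESeq2). By edgeR it passed without PFC anti-miR-99b replicate 3 (0.37, adjusted p-value = 0.0449) or co-culture sc-control replicate 12 (0.43, adjusted p-value = 0.04998). For Irf7 the differences were 0.40 ± 0.23 (PFC minus microglia), 0.52 ± 0.29 (PFC minus co-culture) and 0.12 ± 0.27 (microglia minus co-culture) (SE, adjusted p-values of 0.498, 0.405 and 1.00, edgeR). Without PFC sc-control replicate 4 the first was 0.81 and the second 0.93 (adjusted p-values of 0.0284 and 0.0482, edgeR), and both then passed. For Irf8 the PFC exceeded microglia by 0.37 ± 0.12 (SE, adjusted p-value = 0.155, edgeR), and without PFC sc-control replicate 4 by 0.63 (adjusted p-value = 4.36e-05, edgeR). This difference also passed without PFC anti-miR-99b replicate 3 (0.47, adjusted p-value = 0.0195, edgeR). Without PFC sc-control replicate 4, Irf1, Irf8 and Irf9 also passed between the PFC and the co-culture, with differences of 0.49, 0.55 and 0.55 (adjusted p-values of 0.0157, 0.00191 and 0.0142, edgeR). Calls over all genes moved too when each library was left out in turn. They ranged from 17 to 984 between the PFC and microglia, against 89 with all libraries. Between the PFC and the co-culture they ranged from 45 to 1751, against 150. Replicate 4 was the PFC control with the highest Irf1, Irf7, Irf8 and Irf9, so leaving it out raises these differences. Its microglial markers summed to 577 CPM, against 455 and 445 CPM in the other PFC controls and 549 to 596 CPM in the PFC anti-miR-99b libraries.

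Levels of the genes in the sc-control libraries were compared as CPM per kb of the longest protein-coding transcript. In microglia, Irf8 (118 ± 4.01 per kb, SD, n = 4) and Irf5 (114 ± 6.34) stood highest and overlapped each other, followed by Stat6 (61.1 ± 1.61), and Irf7 was lowest (15.4 ± 3.02), overlapping Stat2 (17.8 ± 1.85). Between them came Stat3 (28.6 ± 0.889) and Irf3 (27.8 ± 1.37), which overlapped, and Irf9 (23.5 ± 1.99) and Irf1 (21.5 ± 0.553), which did too. In the PFC the order was led by Irf3 (12.3 ± 0.941 per kb, SD, n = 3) and Stat3 (11.2 ± 0.648), and Irf8 (3.72 ± 1.04) and Irf5 (2.83 ± 0.667) were last. In the co-culture Stat3 led (16.2 ± 0.534 per kb, SD, n = 8) and stood apart from Stat2 (8.18 ± 0.383), and Irf8, Irf5, Irf7 and Stat6 shared the lowest places at 1.37, 1.33, 0.848 and 0.839 per kb, each overlapping the next. Counted over all annotated exon bases instead, Irf5, Stat6 and Irf8 led in microglia in this order.

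**Figure D4:**
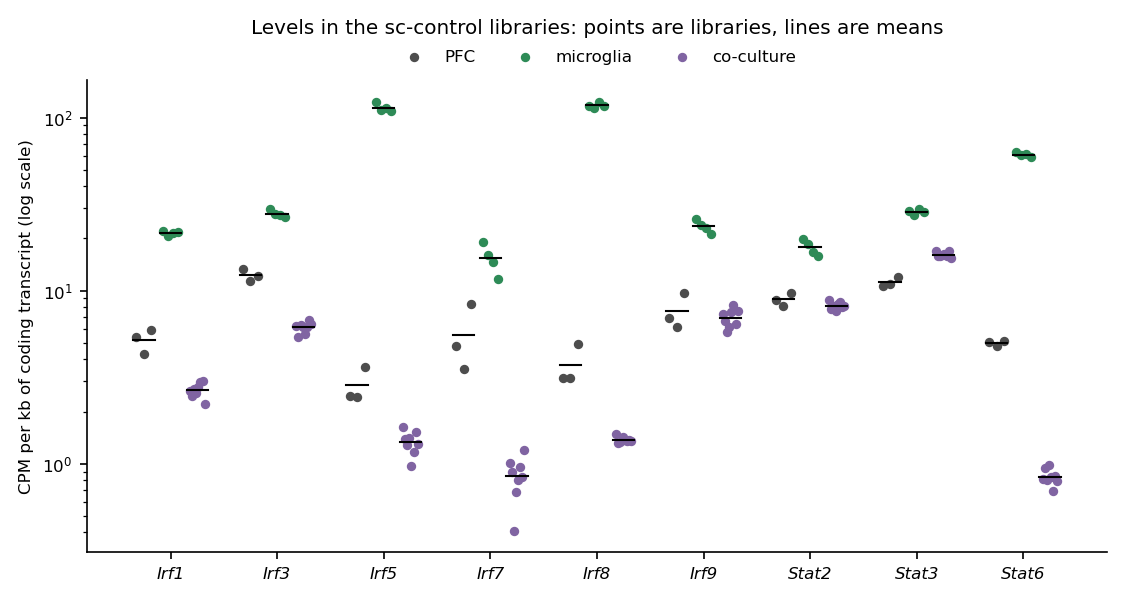
CPM per kb of the longest protein-coding transcript for the 9 members in the 15 sc-control libraries, on a log scale (points are libraries, lines are means). Every member is highest in microglia, and the steps down to the PFC and the co-culture are largest for Irf5, Irf8 and Stat6.

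Compared gene by gene in 1 edgeR fit of the 15 sc-control libraries, all 9 members were higher in microglia than in the PFC and than in the co-culture (adjusted p-value under 0.05 and more than 1 on the log2 scale), where 63.4% and 59.5% of 18274 genes passed the same rule in either direction. The differences fell into steps. Irf8, Irf5 and Stat6 were 98.7-fold, 97.7-fold and 84.1-fold higher in microglia than in the co-culture, and the 10 microglial markers summed were 88.2-fold higher. Irf7 was 20.7-fold, Irf1 9.26-fold, Irf3 5.21-fold, Irf9 3.90-fold, Stat2 2.496-fold and Stat3 2.04-fold higher. Against the PFC, Irf5 and Irf8 were 46.6-fold and 36.6-fold and Stat6 14.2-fold higher, the summed microglial markers 22-fold, and the other 6 members 2.31-fold to 4.77-fold.

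Between the PFC and the co-culture 4 members passed, against 35.4% of all genes, and all 4 were higher in the PFC. These were Irf7 (a log2 difference of 2.72 ± 0.21, SE), Stat6 (2.56 ± 0.06), Irf8 (1.43 ± 0.10) and Irf5 (1.07 ± 0.12), while the microglial markers summed were 4-fold higher. Irf3 (0.99 ± 0.06) and Irf1 (0.96 ± 0.08) stood just inside the limit of 1, Stat3 was lower in the PFC by 0.54 ± 0.04, and Irf9 and Stat2 had differences of 0.13 ± 0.10 and 0.11 ± 0.06 (SE, adjusted p-values of 0.23 and 0.0778, edgeR). Over all genes the median log2 difference of this fit was -0.15 for microglia against the PFC, -0.17 for microglia against the co-culture and 0.00 for the PFC against the co-culture.

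**Figure D5:**
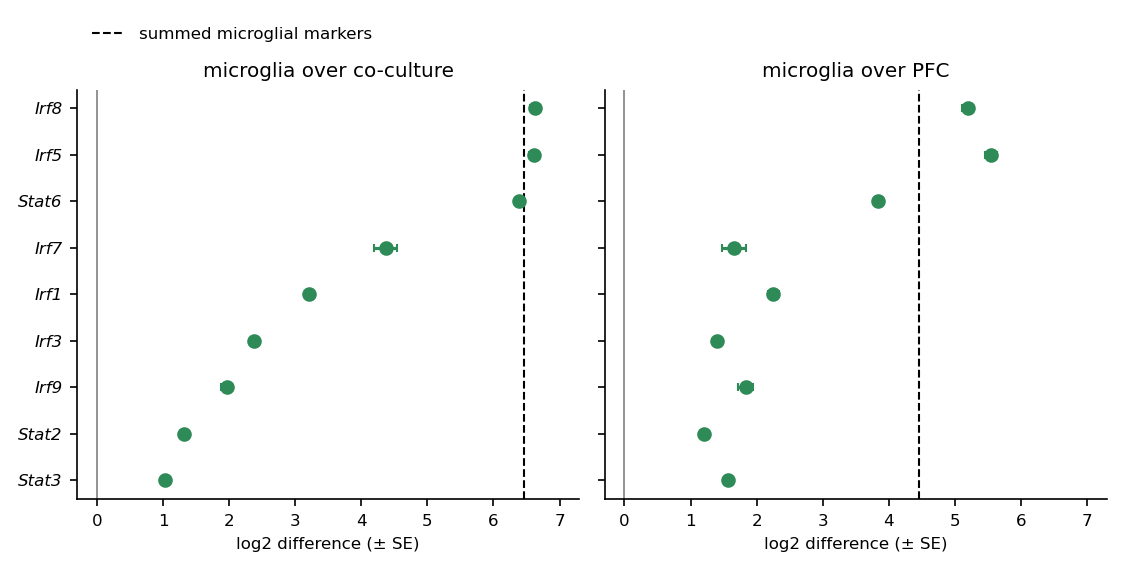
log2 difference ± SE of the 9 members between the sc-control libraries of microglia and those of the co-culture (left) and the PFC (right), ordered by the left panel, with the summed 10 microglial markers as a dashed line. Irf8, Irf5 and Stat6 lie near the dashed line on the left, and the other 6 members lie below it in both panels.

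Around the members, 90 genes of the same pathways were counted by role, from the cytokines to the targets. Of these 82 were tested in the PFC, 78 in microglia and 77 in the co-culture, and 1, 11 and 2 passed the call rule, all higher after anti-miR-99b. Over all genes tested, 0.0864%, 0.435% and 0.846% were called higher. The list was chosen with earlier results of these data known, so its counts are a description and not independent support. Their median log2FC was 0.13, 0.02 and 0.04, against 0.00 over all genes in each experiment.

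The 12 interferon target genes were tested in all 3 experiments and all had a log2FC above 0, with medians of 0.90 in the PFC, 0.51 in microglia and 0.26 in the co-culture. Over all genes tested, 50.6%, 51.6% and 51.6% had a log2FC above 0. In microglia 10 of 12 were upregulated, against 0.435% of all genes called higher. Among them were Oas1a (log2FC of 0.40 ± 0.07), Ifit3 (0.71 ± 0.13), Ifit1 (0.69 ± 0.13) and Oasl2 (0.61 ± 0.12), genes of antiviral sensing and translation block (SE, adjusted p-values of 0.0219 to 0.0272, edgeR). These calls turned on single libraries, since 0 of the 90 genes passed without sc-control replicate 4 or 6 or anti-miR-99b replicate 5, 1 without anti-miR-99b replicate 1, and 5 without anti-miR-99b replicate 4, and DESeq2 called 1. In the PFC 1 of 12 was, Mx2, an antiviral GTPase, at 6.29 ± 1.17 CPM against 2.30 ± 0.384 CPM (SD, n = 3 each, log2FC of 1.45 ± 0.18 SE, adjusted p-value = 0.032, edgeR). It lost the call without anti-miR-99b replicate 2 or sc-control replicate 2 or 3, and without sc-control replicate 4 the pathway genes called went from 1 to 15. In the co-culture 1 of 12 was, Rsad2, which encodes viperin, at 4.58 ± 0.475 CPM (SD, n = 7) against 3.52 ± 0.539 CPM (SD, n = 8), with a log2FC of 0.39 ± 0.09 (SE, adjusted p-value = 0.0254, edgeR). It lost the call without anti-miR-99b replicate 5 or 10 or sc-control replicate 2 or 4 (adjusted p-values of 0.0534 to 0.071, edgeR).

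Upstream of the members little passed the rule. None of the cytokine ligands tested (3 of 8 in each experiment), of the 12 receptors or of the 4 JAK kinases was called in any experiment. Among receptors the smallest p-values belonged to Il4ra in the PFC (log2FC of 0.38 ± 0.11, adjusted p-value = 0.474) and to Il10ra in microglia (0.07 ± 0.03, adjusted p-value = 0.667) and in the co-culture (0.30 ± 0.08, adjusted p-value = 0.0806), each with its SE from edgeR. Of the 11 kinases and adaptors upstream of IRFs, Ikbke, which phosphorylates IRF3 and IRF7, was upregulated in the co-culture, at 9.93 ± 0.857 CPM (SD, n = 7) against 7.90 ± 0.468 CPM (SD, n = 8), and every anti-miR-99b library was above every control (log2FC of 0.33 ± 0.06 SE, adjusted p-value = 0.00202, edgeR). With the log2 sum of the microglial markers as a covariate, the log2FC of Ikbke was 0.18 ± 0.08 (SE, edgeR) and it lost the call. In the PFC the smallest p-value of this role was that of Slc15a4, a transporter needed for Toll-like receptor signals to IRF5 and IRF7 (log2FC of 0.40 ± 0.09 SE, adjusted p-value = 0.281, edgeR).

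Among inhibitors, Usp18, which is induced by interferon and blocks its receptor, was upregulated in microglia, at 18.3 ± 4.14 CPM against 11.8 ± 2.56 CPM (SD, n = 4 each, log2FC of 0.66 ± 0.13 SE, adjusted p-value = 0.0272, edgeR), and the other 13 inhibitors were not called in any experiment. It lost the call without sc-control replicate 4 or 6 or anti-miR-99b replicate 1 or 5 (adjusted p-values of 0.124 to 0.275, edgeR). In the PFC Usp18 had a log2FC of 1.05 ± 0.33 (SE, adjusted p-value = 0.541, edgeR). Of the partners, the coactivator Ep300 had an adjusted p-value of 0.0373 in the co-culture (edgeR) with a log2FC of -0.09 ± 0.02 (SE), too small for the rule, and all 7 anti-miR-99b libraries lay below all 8 controls. The share of all genes that lay below in this way is not given, so this separation has no background. Spi1, which encodes PU.1, the partner of IRF8, had the smallest p-value of its role in the PFC (log2FC of 0.61 ± 0.17 SE, adjusted p-value = 0.443, edgeR). No other IRF or STAT of the list, no STAT3 target gene and no STAT6 target gene passed the rule in any experiment. The STAT6 targets with the smallest p-value were Ccl22 in the PFC (log2FC of 0.87 ± 0.36), Tgm2 in microglia (0.12 ± 0.04) and Egr2 in the co-culture (-0.18 ± 0.09), with adjusted p-values of 0.649, 0.323 and 0.427 (edgeR). In the co-culture 0 of the 4 tested targets were called, against 0.846% of all genes called higher, and 3 of the 4 had a log2FC above 0 (median 0.06). So few genes cannot show whether the targets followed Stat6.

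The genes most like each member were found by the correlation of log2(CPM + 0.5), each library taken as its deviation from the mean of its own group, over 29 libraries and 13649 other genes. These are descriptions, since libraries of an experiment share depth, lane and cell composition. Irf9 was most like Rtp4 (Pearson r = 0.938) and Oasl2 (0.911), Irf7 most like Oasl2 (0.886) and Isg15 (0.868), and Stat2 most like Cmpk2 (0.896) and Oas2 (0.776), all genes that interferon induces. Irf8 was most like Fcrls (0.928), a microglial receptor gene, and Serpina3n (0.895), and Irf5 most like Tcirg1 (0.844) and Ctsz (0.842), of the lysosome. Stat3 was most like S1pr3 (0.817) and Msn (0.788), Irf1 most like Oas1c (0.763) and Pmaip1 (0.667), Irf3 most like E4f1 (0.743) and Tmem109 (0.736), and Stat6 most like Tor4a (0.739) and Trim47 (0.696). Within the microglia libraries alone r was near 0 for Irf1 with Oas1c (0.092) and Pmaip1 (0.086) and for Stat3 with Msn (0.0853), while every other r of these pairs within an experiment was between 0.548 and 0.996. Among the members themselves Irf7 and Irf9 stood closest (r = 0.796), followed by Irf5 and Irf8 (0.664), Irf7 and Stat2 (0.633) and Irf9 and Stat2 (0.584), whereas Stat6 had r of -0.22 to 0.32 with the other 8.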

How the data were processed

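RNA-seq count tables of 29 libraries in 3 experiments were used. Per the labels and the submitters' processing notes, the authors demultiplexed reads with bcl2fastq 2.20.2, checked them with FastQC 0.11.5, aligned them to mm10 with STAR 2.5.2b and counted reads per gene with featureCounts 1.5.1; the deposited values are raw counts, and no strand setting is given in the sources used here. Symbols, positions and lengths came from GENCODE M21, promoter and miRNA sequences from RefSeq. Each experiment was fitted alone with edgeR 4.0.16 (R 4.3.3; filterByExpr, TMM, quasi-likelihood test, Benjamini-Hochberg over all genes), checked on simulated counts. The design had no covariate; DESeq2 1.42.0, RLE factors, other filters, 1 factor of unwanted variation, lane, number as a block, other thresholds and leaving out each library were tried, and a microglial marker covariate was added after the marker levels were seen. Two-sided exact permutation tests were run for 27 member values in CPM, for the same 27 per microglial marker level and for 3 marker sums, and for each marker and pathway gene (not printed), and none is adjusted. The members and lists were chosen with earlier results of these data known. Named were all 9 members, per role of the pathway list and experiment up to 4 called genes by smallest p, or the 1 with the smallest p where none was called, and per member the 2 most alike genes. No 2 libraries of a group agreed within sampling noise (chi-square per degree of freedom at least 1.48). A marker gene of another cell type is not reported here.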

Additional observations from a re-analysis of the deposited data

How the results depend on the processing

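Of 153 member values under the alternatives in the PFC, 123 kept their direction and their side of the call rule, as did 147 of 162 in microglia, 206 of 225 in the co-culture, 866 of 891 differences between experiments and 498 of 513 baseline comparisons. In the PFC, 0 members and 1 pathway gene were called, and 15 genes in all. These counts were 1, 6 and 93 with DESeq2, 4, 17 and 412 without a filter, 3, 11 and 187 with 1 factor of unwanted variation, 2, 9 and 77 with lane, and 0, 0 and 1 with the microglial marker covariate. In microglia (2, 11 and 73) they were 0, 1 and 38 with DESeq2, and in all genes 167 without a filter and 123 with the factor. In the co-culture (1, 2 and 227) they were 2, 4 and 287 with DESeq2, 3, 6 and 514 with the factor, 1, 1 and 121 with lane, 3, 4 and 361 at an adjusted p-value of 0.1, and 0, 0 and 3 with the marker covariate, and 2 members were called without a filter. The cause was not tested.

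Numbers that both groups share gave same-number correlations of 0.0476 and -0.29 in the PFC, -0.05 and -0.04 in microglia and -0.01 to 0.05 in the co-culture. These values showed no pairing of the libraries by number, but so few shared numbers cannot exclude one. With the replicate block, which keeps only libraries with a shared number, 5 members, 23 pathway genes and 518 genes were called in the PFC (4, 19 and 315 in the same libraries with no replicate block), 2, 10 and 249 in microglia (1, 2 and 153 with none), and 0, 3 and 93 in the co-culture (0, 2 and 123 with none). Crossing numbers 2 and 3 in the PFC gave 6, 23 and 638, chosen after the correlations were seen.

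Leaving out each library in turn gave 0 to 4 members and 0 to 15 pathway genes in the PFC, where 4 and 15 were without sc-control replicate 4, 0 to 3 and 0 to 15 in microglia, and 1 to 3 and 1 to 3 in the co-culture. For the differences between experiments it gave 0 to 6 members, with 6 without PFC sc-control replicate 4, and DESeq2 called 2. All genes called ranged from 1 to 201 in the PFC, from 2 to 409 in microglia and from 143 to 300 in the co-culture. For the baseline comparisons 22 to 24 member values were called when each library was left out, and 22 to 24 under the other alternatives.

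The sign turned in values that did not pass the rule. With the marker covariate, the log2FC was -0.0799 for Irf5 in the PFC, -0.013 for Irf8 in microglia, and -0.261 for Irf5 and -0.0149 for Stat3 in the co-culture, and Irf5 there was -0.0118 with the block and -0.0361 in its libraries without it. The difference of Stat3 between the PFC and microglia was -0.00759 without a filter. With each library left out, that difference ranged from -0.00409 to 0.0768 for Stat3, from -0.00549 to 0.109 for Irf3 and from -0.0166 to 0.136 for Stat2, the difference between microglia and the co-culture from -0.0565 to 0.0436 for Irf5 and from -0.00819 to 0.0425 for Irf3, and the baseline difference of Irf9 between the PFC and the co-culture from -0.0778 to 0.258. With 3 libraries per group in the PFC, and 28 to 107 reads on Irf7 per co-culture library, these comparisons have little precision.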
